A study of Homo sapiens with 8 samples.

Results

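IL7R, IRF9 and NFATC2 are genes best known from lymphoid cells and cytokine signalling that appear among the serum-dependent genes of NCI-H295R, a human adrenocortical carcinoma line that makes adrenal steroids. The 3 genes were taken by name from the deposited table of 187 genes, which the authors had already selected for differing between the groups, and they were picked with the results of that comparison known. The libraries are polyA RNA from 4 serum-deprived samples and 4 controls. Controls grew in DMEM-F12 with NU-I serum, the ITS supplement (insulin, transferrin and selenium) and Pen/Strep. Serum-deprived cells had the same medium without NU-I serum and without ITS. The loss of serum and the loss of insulin, transferrin and selenium therefore cannot be told apart. All libraries come from this single line, and how long the cells went without serum was not stated in the labels. The labels do not state whether replicates were separate cultures, so the spread between them may be technical.

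IL7R encodes the alpha chain of the interleukin 7 receptor, which pairs with the common gamma chain on T cell precursors and naive T cells and signals through JAK1, JAK3 and STAT5. It also forms the receptor for TSLP together with CRLF2. IRF9 is the DNA-binding subunit of ISGF3, the complex that turns on interferon-stimulated genes after type I interferon. NFATC2 is a transcription factor held in the cytoplasm by phosphorylation, which enters the nucleus when calcium activates the phosphatase calcineurin and drives cytokine genes in activated T cells.

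The receptor and the interferon factor were lower in serum-deprived cells and the calcium-regulated factor was higher. IL7R stood 5.66-fold lower, IRF9 1.68-fold lower and NFATC2 1.89-fold higher than in controls. The values of serum-deprived and control libraries did not overlap for any of the 3 genes. The same held for 66.3% of the tabulated genes, 26.2% with serum-deprived cells higher and 40.1% with serum-deprived cells lower. All 3 passed the edgeR quasi-likelihood test at a Benjamini-Hochberg adjusted p of 0.05 over the table, as did 85.0% of the 187 genes. Out of all 187, 36.9% passed as higher and 48.1% as lower. Because the table and the 3 genes were chosen on this same contrast, these counts say nothing particular about them, and the folds below are given as a description with no test. All values are estimated counts from kallisto divided by a size factor for each library (scaled counts). They are not corrected for transcript length and are compared within a gene only.

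IL7R lies on the plus strand of chromosome 5 from 35852695 to 35879603 (GRCh38, GENCODE annotation), with no other annotated gene overlapping it. In serum-deprived replicates 1 to 4 its scaled counts were 17.7, 21.5, 23.3 and 24.8, against 126, 163, 112 and 93.9 in the controls of the same numbers. The highest serum-deprived library was thus far under the lowest control, while the receptor transcript was still counted in every serum-deprived library. The means were 21.8 ± 3.07 in serum-deprived cells and 124 ± 29.3 in controls (SD, n = 4 each), a log2 fold change of -2.50 ± 0.22 (SE). This was the largest fall in the table by the fitted fold change, in a gene that ranked 128 of 187 by mean count. That mean rests mostly on the controls, and IL7R may have met the authors' filter on average counts only through them. The serum-deprived values rest on few reads, with estimated counts of 15, 21.2, 25.1 and 21.0. Their coefficient of variation of 14.1% was below the 22.1% that counting error alone would give at that mean, whereas the controls varied by 23.7% against 8.60%.

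IRF9 lies on the plus strand of chromosome 14 from 24161053 to 24166565. Serum-deprived replicates 1 to 4 had scaled counts of 185, 216, 209.8 and 230.2, and the same-numbered controls had 305, 399, 358 and 353. As a ratio, the groups were separated by a narrower margin than for IL7R, and replicate 1 was the lowest library in both groups. The means were 210.1 ± 19.0 in serum-deprived cells and 354 ± 38.2 in controls (SD, n = 4 each), a log2 fold change of -0.75 ± 0.14 (SE). The median over all genes that passed as lower was -0.83, so that the fall of IRF9 was of ordinary size for this table. By the authors' own values the smallest tabulated fall was -0.58, and that of IRF9 was -0.72. Genes with smaller falls by those values have no row, so the median leaves them out. The estimated counts of IRF9 were not whole numbers. The same held for 118 of the 187 tabulated genes, among them IL7R, which no other annotated gene overlaps. The annotation has another gene, AL136295.5, overlapping IRF9 on the same strand, and kallisto may have divided reads between them. How far this was so was not tested.

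NFATC2 lies on the minus strand of chromosome 20 from 51386957 to 51562831, and the microRNA gene MIR3194 is annotated within it. Its scaled counts were 156, 96.4, 109 and 89.8 in serum-deprived replicates 1 to 4, against 55.2, 61.8, 68.0 and 52.8 in the same-numbered controls. Serum-deprived replicate 1 stood above the other libraries of its group, which lay closer to the controls. The means were 113 ± 29.7 in serum-deprived cells and 59.4 ± 6.85 in controls (SD, n = 4 each), a log2 fold change of 0.92 ± 0.21 (SE). It ranked 15 in the table by size of rise, against a median of 0.67 over the genes that passed as higher. That median also leaves out small rises, since the authors' smallest tabulated rise was 0.59. Its estimated counts were whole numbers within 0.01 in all 8 libraries, unlike those of IL7R and IRF9. The control libraries varied by 11.5%, close to the 12.5% of counting error, while the serum-deprived libraries varied by 26.4% against 9.76%.

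**Figure D1:**
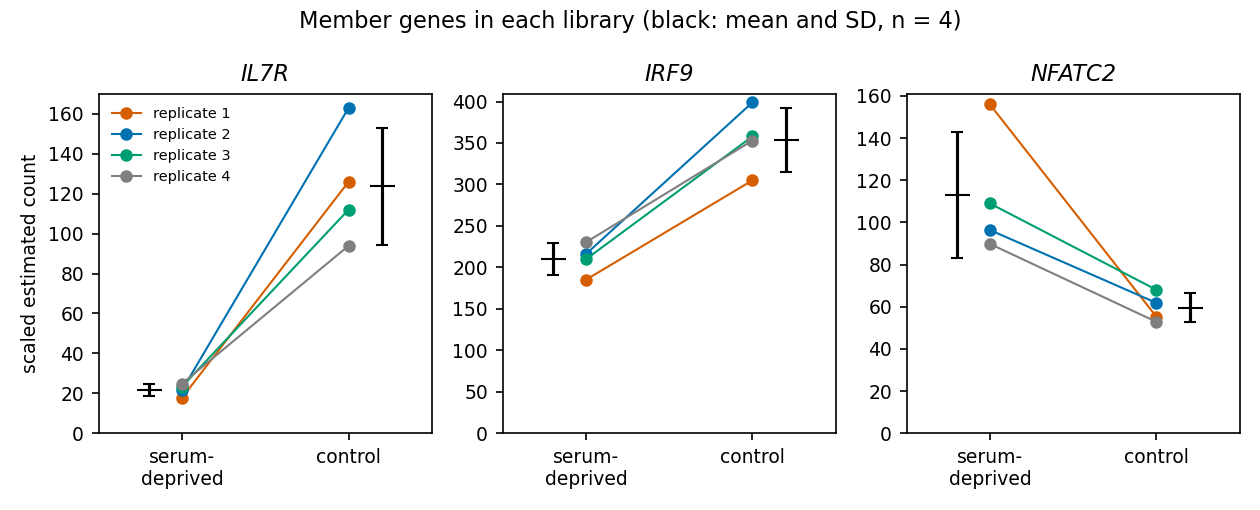
Scaled estimated counts of the 3 genes (vertical axis, from 0) in serum-deprived (left) and control (right) libraries. Lines join libraries of the same replicate number and black bars are the mean and SD of 4 libraries; no serum-deprived value reaches into the control range for any gene, and NFATC2 in serum-deprived replicate 1, at 156, is apart from the others of its group.

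Each numbered pair was read as a separate comparison of a serum-deprived and a control library. The pairs follow the numbers in the sample titles, and the labels do not state that the samples were paired. The ratios are on the scale of log2(scaled count + 0.5). IL7R was lower in all 4 pairs, with log2 ratios of -2.79, -2.90, -2.25 and -1.90 in pairs 1 to 4. Their mean was -2.46 ± 0.47 (SD, n = 4 pairs), and the counting error of a single pair was between 0.31 and 0.39. The deepest and the shallowest falls of IL7R, 7.44-fold in pair 2 and 3.73-fold in pair 4, were thus about 1 log2 unit apart. IRF9 was lower in all 4 pairs with a narrow spread. Its log2 ratios were -0.72, -0.89, -0.77 and -0.62, with a mean of -0.75 ± 0.11 (SD, n = 4 pairs), and counting error was between 0.12 and 0.14. The pairs therefore differed for IRF9 by no more than counting alone would give. NFATC2 was higher in all 4 pairs, at 1.49, 0.64, 0.67 and 0.76, a mean of 0.89 ± 0.40 (SD, n = 4 pairs) with counting error from 0.21 to 0.26. A single direction in all 4 pairs was seen in 81.8% of the tabulated genes.

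**Figure D2:**
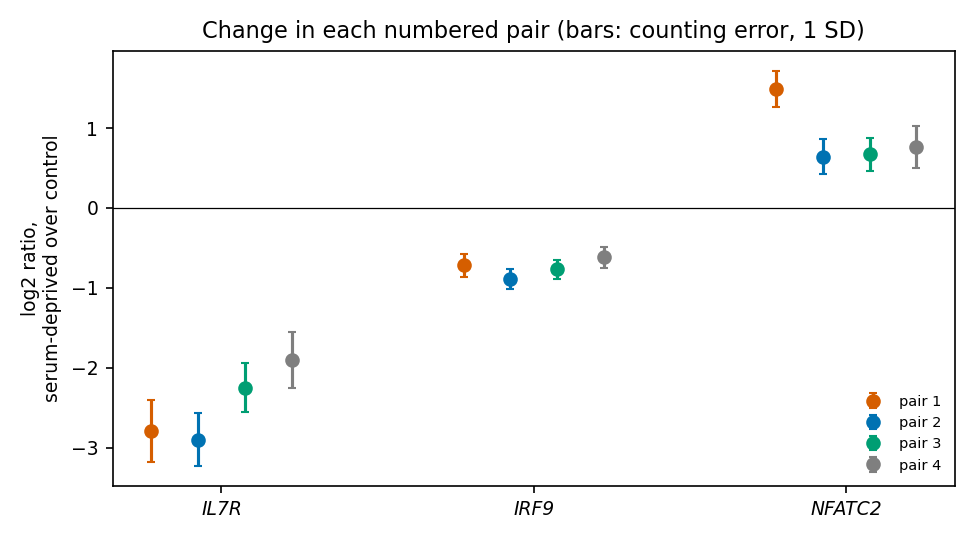
Log2 ratio of serum-deprived over control scaled counts (vertical axis) for each of the 3 genes in numbered pairs 1 to 4. Bars are 1 SD of counting error in that pair; IRF9 lies between -0.89 and -0.62 in every pair, and NFATC2 is at 1.49 in pair 1 against 0.64 to 0.76 in the others.

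The replicate 1 libraries need separate mention. In both groups they stood apart, with Spearman correlations across genes of 0.919 to 0.950 with the other replicates of their group, against 0.969 to 0.987 among replicates 2 to 4. Across genes, the log2 ratio of mean scaled counts over replicates 2 to 4 minus the value in the authors' deposited table had an SD of 0.00827, against 0.201 when all 8 libraries were averaged. The deposited folds thus match replicates 2 to 4, and pair 1 is a reading outside them, although it has no replicate of its own. Its scale between the groups was set with all 8 libraries, and the genes were picked with results known. It is therefore not a held-out reading. In it IL7R was 6.93-fold lower, IRF9 1.65-fold lower and NFATC2 2.80-fold higher in serum-deprived cells. The ratio in pair 1 minus the mean of the other pairs was -0.45 for IL7R, 0.03 for IRF9 and 0.80 for NFATC2 on the log2 scale. The median size of this difference over the 187 genes was 0.44. Without replicate 1 of both groups the fitted log2 fold changes were -2.42 for IL7R, -0.76 for IRF9 and 0.69 for NFATC2. The authors' deposited table gives -2.37, -0.72 and 0.74 for the same genes.

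Differences between the changes of 2 genes in the same pair do not depend on how the libraries were scaled, apart from the small pseudocount. The log2 change of IL7R minus that of IRF9 was -2.07, -2.01, -1.48 and -1.28 in pairs 1 to 4, so that the receptor transcript fell further than the interferon factor in each pair. The mean was -1.71 ± 0.39 (SD, n = 4 pairs). The change of NFATC2 minus that of IRF9 was 2.21, 1.52, 1.44 and 1.38, and minus that of IL7R it was 4.28, 3.53, 2.92 and 2.66. NFATC2 and the other genes therefore separated in the same direction in all 4 pairs whatever the scale between the groups. The genes were picked with these directions known, so the separation is a description only.

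**Figure D3:**
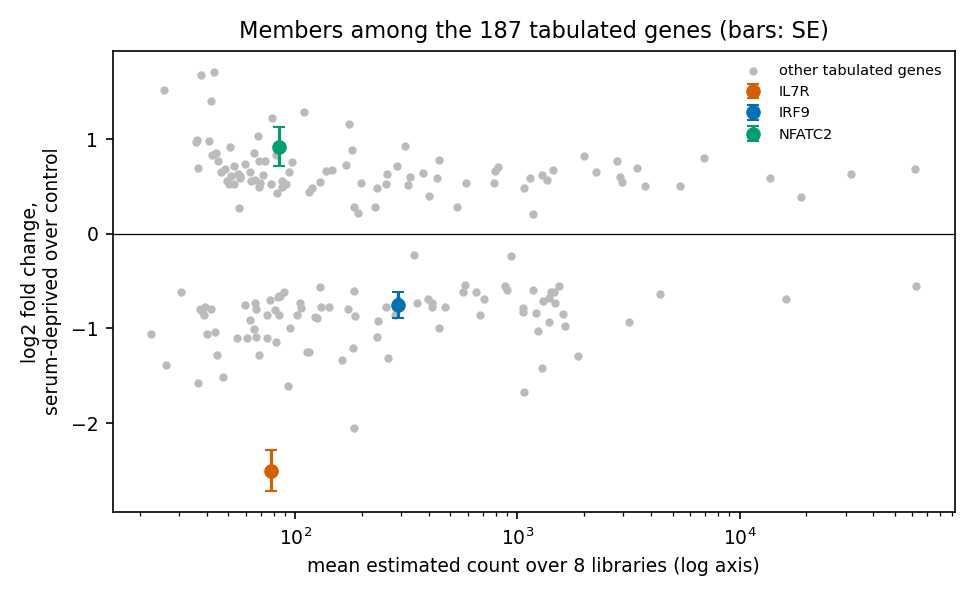
Log2 fold change of serum-deprived over control cells (vertical axis) against the mean estimated count over 8 libraries (horizontal log axis) for the 187 tabulated genes in grey and the 3 genes in colour, with SE bars. IL7R, at -2.50, is the lowest point of the plot, while IRF9 and NFATC2 lie within the cloud of genes selected by the authors.

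Partners of the 3 genes were sought in lists of their pathways, of which few members have a row in the table. Of 30 genes of common gamma chain cytokine and JAK-STAT signalling, 25 of NFAT and calcineurin signalling, 30 of NF-kB, cytokines and chemokines and 20 of antigen presentation, 0 were tabulated. Genes without a row, among them JAK1, CRLF2 and the calcineurin subunits, were not analysed here. Of 46 gene names of interferon signalling and interferon-stimulated genes, only IRF5 was tabulated, and it passed as higher. DDX58 and RIGI on that list are names of the same gene. IRF5 is an interferon regulatory factor that acts downstream of Toll-like receptors. Its scaled counts were 73.1, 85.2, 105 and 85.1 in serum-deprived replicates 1 to 4, against 36.2, 47.8, 48.8 and 72.8 in controls. The lowest serum-deprived library was just above the highest control, and the log2 fold change was 0.77 ± 0.23 (SE). Without scaling the call was lost (edgeR adjusted p = 0.0702). The tabulated interferon regulatory factors thus had opposite directions, with IRF9 lower and IRF5 higher.

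The cells were checked against marker lists as far as the table allows. Of 16 adrenal cortex markers, 4 were tabulated, HSD3B2, MRAP, INHA and DLK1, and all 4 were counted in every library. All 4 passed as lower, beside 48.1% of a table selected for change. The 12 adrenal markers without a row were not analysed here. DLK1 was the most abundant tabulated transcript by count, with 49745 ± 3461 scaled counts in serum-deprived cells and 72897 ± 4152 in controls (SD, n = 4 each). Of 25 leukocyte markers, 1 was tabulated. This was LCP1, an actin-bundling protein of leukocytes that many carcinoma lines also express, with 1656 ± 290.5 scaled counts in serum-deprived cells and 1114 ± 175 in controls (SD, n = 4 each). LCP1 passed as higher (edgeR adjusted p = 0.00846, and 0.0707 with counts as deposited) and was higher in all 4 pairs by 0.53 to 0.61 on the log2 scale, whereas IL7R was lower in all 4. Tabulated genes of immune cells outside this list, picked after the table was seen, went both ways. CD22, CD160, FCN1 and RASGRP3 were lower like IL7R, with log2 fold changes of -1.28, -0.86, -1.10 and -1.10. DEF6 and RASGRP1 were higher, at 0.63 and 0.49. The other 24 leukocyte markers of the list, PTPRC and the CD3 chains among them, were not analysed here. Neither were the 8 fibroblast and 8 endothelial markers. Whether other cells contributed to the 3 transcripts was not tested. In bulk RNA, fewer cells that carry a transcript and less of it per cell cannot be told apart.

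The genes with the most similar profiles over the 8 libraries were found by the root mean square difference of log2 levels, after each gene's own mean had been removed. Nearest to IL7R was CCDC3, at 0.35, followed by the argininosuccinate synthase gene ASS1 at 0.48 and the retinoic acid receptor gene RARB at 0.49. The median over all genes was 1.36. CCDC3 had 63.7, 69.0, 69.7 and 72.1 scaled counts in serum-deprived replicates 1 to 4, against 301, 253, 284 and 299 in controls. These 3 genes had the largest falls after that of IL7R itself, so that the distance ranked them by the size of the change. Nearest to IRF9 were SERPINA5, a secreted serpin, AC087289.1, whose Ensembl identifier is that of TRIM47 in the reference annotation, and MAP3K5, a stress-activated kinase. Their distances were 0.08, 0.08 and 0.09, against a median of 0.62. Nearest to NFATC2 were the neuronal calcium channel subunit gene CACNA1B at 0.10, the mevalonate decarboxylase gene MVD at 0.15 and the kinesin gene KIF21B at 0.15, against a median of 0.79. CACNA1B shared the high serum-deprived replicate 1, with 642 scaled counts there and 333, 365 and 336 in replicates 2 to 4, against 201, 242, 231 and 204 in controls. With so few libraries many genes share such a profile, and it says nothing of a common control.

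**Figure D4:**
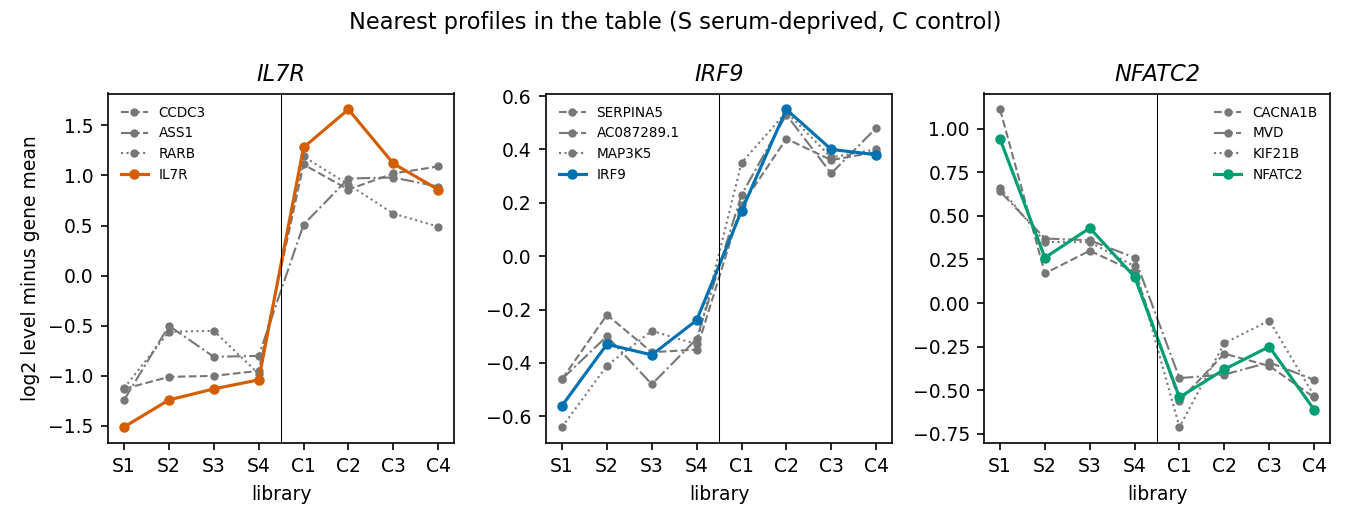
Log2 level minus the gene's mean (vertical axis) in serum-deprived (S1 to S4) and control (C1 to C4) libraries for each gene (coloured) and the 3 tabulated genes with the smallest root mean square difference from it (grey). The IRF9 lines nearly coincide, at distances of 0.08 to 0.09, while the neighbours of IL7R are 0.35 to 0.49 away and lie above it in every serum-deprived library.

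Sequence around RefSeq transcript starts of the 3 genes is shown to give their genomic setting. Whether it bears on their changes was not tested. Windows of 300 bases, from 250 before to 50 after a RefSeq start (GRCh38.p14), were found for all 3 genes, with 4 windows in all because NFATC2 has a pair of starts. They were searched on both strands for a repeat of GAAA with 2 bases between (the core of the interferon-stimulated response element bound by ISGF3), TTCNNNGAA (the palindrome of STAT sites) and GGAAA (the NFAT core). Among 35116 such windows in the RefSeq table, these were found in 3.57%, 7.66% and 61.2%. The IRF9 window held 1 STAT palindrome and 1 NFAT core, which overlap. The upstream NFATC2 window held 3 NFAT cores, and the windows of IL7R and of the downstream NFATC2 start held none of the 3 motifs. The IL7R window lies within the annotated gene, whose GENCODE span begins further upstream with other transcripts. The first line below is the stretch of the IL7R window outside annotated exons, between an exon of another transcript and the start (chr5:35856688-35856848, plus strand). The second is the motif of the IRF9 window with its flanks (chr14:24161192-24161221, plus strand), a window that lies wholly within annotated exons. The third is the stretch of the upstream NFATC2 window outside GENCODE exons (chr20:51562832-51563089, minus strand), and its last bases lie after the RefSeq start. Capitals mark motif matches.
IL7R: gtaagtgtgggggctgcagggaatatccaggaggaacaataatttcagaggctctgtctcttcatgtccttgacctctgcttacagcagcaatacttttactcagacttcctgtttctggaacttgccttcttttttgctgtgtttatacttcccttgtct
IRF9: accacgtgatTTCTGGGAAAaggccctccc
NFATC2: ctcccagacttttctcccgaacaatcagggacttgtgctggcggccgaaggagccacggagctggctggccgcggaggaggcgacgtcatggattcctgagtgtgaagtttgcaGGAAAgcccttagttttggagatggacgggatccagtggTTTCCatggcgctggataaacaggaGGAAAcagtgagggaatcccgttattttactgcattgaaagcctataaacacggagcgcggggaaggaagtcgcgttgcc
A match is a run of letters and not a bound site, and the NFAT core is present in most windows.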

How the data were processed

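The authors deposited 1 table of 187 genes with estimated counts per library, not scaled to depth, and their own log2 fold change and FDR, an adjusted p-value, per the file headers. The submitters' processing notes name GRCh38 as the build, kallisto, edgeR, cutadapt and FastQC, with no versions. The tabulated counts summed to 262373 to 359195 per library, which is not its depth, and depth is unknown. There were 0 columns of other samples. The deposited log2 fold changes were 0.59 or more for rises and -0.58 or less for falls, with FDR up to 0.0993.

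Size factors (0.846 to 1.21) were medians of ratios within each group (pseudocount 0.5). The groups were then set against each other by centring on 0 the broadest gap among log2 ratios of group means (from -0.41 to 0.02, with at least 20 genes to either side), a shift of -0.20, since the table holds selected genes only. The pseudocount and interval rule follow earlier work on the table. Estimated counts were rounded and fitted with edgeR 4.0.16 in R 4.3.3, by a two-sided quasi-likelihood test with Benjamini-Hochberg adjustment over 187 genes. The fit was run on simulated tables with known size factors and no replicate that stood apart. The centring was run on simulated tables with a gap built in. These runs therefore do not test the scale between the groups or the spread of replicate 1 in these data. SE came from the F statistic. Counting error was the square root of the summed reciprocal counts, divided by ln 2, and covers counting only. Libraries of a group were no duplicates (chi-square per degree of freedom 4.27 to 63.7). Deviations of same-numbered libraries from the group means were weakly correlated over genes, at 0.216, 0.377, 0.111 and 0.122 for numbers 1 to 4. Libraries of different numbers were not compared in this way, so these values cannot show pairing. The pairs rest on the numbers in the sample titles. Named genes were the 3 members, the 3 nearest profiles of each, and every listed gene in the table. Members and lists were chosen with earlier results of these data known. Alternatives were other scalings, a minimum mean count of 100, limma-voom (limma 3.58.1), DESeq2 1.42.0, a replicate block, omissions of libraries and a pseudocount of 1.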

Additional observations from a re-analysis of the deposited data

How the results depend on the processing

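The directions of IL7R, IRF9 and NFATC2 held in every alternative fit, with log2 fold changes from -2.71 to -2.34, -0.96 to -0.60 and 0.69 to 1.08. The scale between the groups moved all 3 genes by similar amounts on the log2 scale, which is most against the size of its own change for IRF9. It was -0.96 without scaling and -0.60 with median-of-ratios size factors, and the mean over pairs was -0.95 and -0.60 under the same settings. With the replicate block the values were -2.48, -0.75 and 0.89, and the block changed no call of the 3 genes. Omitting libraries gave -2.61 to -2.34 for IL7R, -0.82 to -0.69 for IRF9 and 0.69 to 1.01 for NFATC2. Over the whole table, 69 genes were higher and 90 lower. Counts as deposited gave 21 and 91, median-of-ratios size factors gave 80 and 74, and a minimum mean count of 100, which leaves fewer genes and removes IL7R and NFATC2, gave 36 and 55. The counts of IL7R in serum-deprived cells limit the precision of its fold.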

Other observations

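Besides the genes described, 15 tabulated genes with known roles in immune cells or inflammation were picked out after the table had been seen, so their counts carry no test of a theme. In serum-deprived cells, 4 passed as higher and 11 as lower, beside 36.9% and 48.1% of the table. The same counts were found without replicate 1 of both groups. The 11 lower calls were the same in number in every other fit that kept all 15 genes, whereas 0 were higher without scaling, 2 with column totals or without control replicate 2, and 1 without serum-deprived replicate 4. Genes of lymphocyte receptor signalling went both ways. DEF6 and RASGRP1, exchange factors of T cell receptor signalling, were higher with log2 fold changes of 0.63 ± 0.18 and 0.49 ± 0.19 (SE). RASGRP1 did not pass without scaling, with column totals, or without serum-deprived replicate 3 or 4 or control replicate 2 or 3 (edgeR adjusted p from 0.0699 to 0.204). Also higher were KIT (0.52 ± 0.20), the stem cell factor receptor, whose groups overlapped and which did not pass with the replicate block (edgeR adjusted p = 0.0609) or in 6 other fits (0.0577 to 0.273), and the kinase gene MAPK11 (0.59 ± 0.19). RASGRP3, an exchange factor of B cells, had a log2 fold change of -1.10 ± 0.29. CD22, the inhibitory B cell receptor, had 37.7 ± 14.3 scaled counts in serum-deprived cells and 92.0 ± 21.4 in controls (SD, n = 4 each). CD160, a receptor of natural killer and T cells, had 27.0 ± 6.54 scaled counts in serum-deprived cells and 48.7 ± 4.49 in controls.

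The remaining genes of this selection were lower in serum-deprived cells. Complement factor I (CFI) had 1081 ± 84.6 scaled counts in serum-deprived cells and 2117 ± 232 in controls (SD, n = 4 each), and the central component C3 and the ficolin gene FCN1 had log2 fold changes of -0.79 ± 0.25 and -1.10 ± 0.18 (SE). LY6E, an interferon-inducible membrane protein, was lower (-0.64 ± 0.11), whereas IRF5, the 1 tabulated gene of the interferon list, was higher. The cytokine receptor TNFRSF12A (-0.92 ± 0.17), the glucocorticoid-regulated annexin ANXA1 (-1.21 ± 0.27) and the transcription factors CEBPB (-0.69 ± 0.12) and CEBPD (-1.04 ± 0.27) were also lower.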
